A study of Homo sapiens with 21 samples.

Results

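The citric acid cycle was followed through 9 nuclear genes that encode enzymes of the mitochondrial matrix, namely CS, IDH2, IDH3A, IDH3B, OGDH, DLST, SUCLG1, FH and MDH2. They were chosen by name, as the rows whose Ensembl identifier maps to these symbols, and all 9 were found among the 42339 genes of the count table. BT-549 is an established triple-negative breast cancer (TNBC) cell line, and RNA-seq counts were available for 21 of its cultures, 3 in each of 7 groups. The 2D cells grew as monolayers in medium with serum and insulin. The 3D cells were mammospheres at passage 6, kept in serum-free medium without attachment, so that growth form and medium cannot be told apart. Another group was such 3D cells exposed to 0.75 μmol/L GO-203, a peptide inhibitor directed at the CQC motif in the cytoplasmic part of MUC1-C. The other 4 groups were mammospheres of puromycin-selected lines that carry a DOX-inducible shRNA. The tet-MUC1shRNA line was at passage 6 and the tet-MYCshRNA line at passage 8 by the labels, although the study's own description also gives another passage for the latter, each given vehicle (0.1% DMSO) or DOX (500 ng/ml). Each line carries 1 shRNA, and a DOX-treated control line was not analysed here, so that silencing and DOX itself cannot be told apart. The labels call the experiments triplicate without saying whether cultures were started separately, so that p-values measure the spread between these libraries.

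The cycle oxidises the acetyl group that pyruvate and fatty acids deliver to mitochondria, and passes the electrons to the respiratory chain as NADH and through succinate dehydrogenase. It also supplies citrate for lipid synthesis, 2-oxoglutarate for dioxygenases and glutamate metabolism, and oxaloacetate for aspartate. Tumor cells differ in how far they run it for oxidation or for these exits. Isocitrate is converted to 2-oxoglutarate by separate mitochondrial enzymes. One is the NAD-dependent complex IDH3, built from IDH3A, IDH3B and IDH3G, and the other is the NADP-dependent enzyme IDH2, which can also run in reverse.

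Libraries held between 38026597 and 99751717 counts, and the members took 0.0934% to 0.169% of them. A member had between 381 and 45262 counts in a library. The mesenchymal markers VIM (1076 to 2486 CPM) and FN1 (441 to 13250 CPM) were abundant in every library, and CDH2 lay between 11.3 and 452 CPM. Their sum was 2064 to 2078 CPM in 2D and 7799 to 8285 CPM in 3D cells. CDH2 was lower in 3D vs. 2D cells by a log2 of -3.11 and higher by 2.67 on MUC1 silencing. CPM are counts scaled to library size with TMM factors over the 21 libraries. The same sum went from 11050 to 12110 CPM in vehicle-treated down to 8265 to 8609 CPM in DOX-treated tet-MUC1shRNA cells, and from 7556 to 7822 CPM up to 13670 to 15390 CPM in tet-MYCshRNA cells. The summed level of 5 epithelial markers stayed at or below 2.72 CPM. KRT19 was at 0 in 18 libraries and EPCAM in 16. These sums moved with the groups at this low level, from 0.0522 to 0.141 CPM in vehicle-treated to 2.38 to 2.72 CPM in DOX-treated tet-MUC1shRNA cells. Of the receptors that define TNBC by their lack, ESR1 and PGR reached 1.48 and 0.0684 CPM, and ERBB2 lay between 18.4 and 42.0 CPM. The sum of these receptors was 18.7 to 22.7 CPM with vehicle and 28.1 to 43.5 CPM with DOX in tet-MYCshRNA cells. The 3 leukocyte markers summed to 1.66 CPM at most. Among endothelial markers VWF did not pass 0.171 CPM, whereas PECAM1 moved with 3D growth, and the pair summed to 0.0348 to 0.205 CPM in 2D and 5.95 to 7.29 CPM in 3D cells. The part of these markers in the results was not tested. DOX-treated tet-MYCshRNA replicate 1 stood apart from its replicates (chi-square per degree of freedom 45.6 and 31.5, against at most 18.6 for any other pair), and had the lowest share of counts in the members (0.0934%). In bulk RNA, fewer cells of a type and less RNA per cell cannot be told apart.

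MUC1 was at 101, 83.2 and 86.6 CPM in vehicle-treated and 19.7, 21.2 and 23.3 CPM in DOX-treated tet-MUC1shRNA cells. MYC was at 439, 418 and 386 CPM in vehicle-treated and 244, 279 and 297 CPM in DOX-treated tet-MYCshRNA cells. Both targets were thus lower in each silenced library than in any control, by a log2 of -2.06 for MUC1 and -0.62 for MYC. The other gene did not stay level: MYC was higher by a log2 of 0.25 on MUC1 silencing and MUC1 by 1.25 on MYC silencing.

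Levels of different genes were compared per length, as CPM per kilobase of the MANE Select transcript (RPKM). In 3D cells MDH2, which closes the cycle by making oxaloacetate from malate, was at 166 ± 7.53 RPKM (SD, n = 3). CS, which joins oxaloacetate and acetyl-CoA into citrate, followed at 130 ± 1.77. OGDH, the E1 component of the 2-oxoglutarate dehydrogenase complex, stood at 92.5 ± 3.71, and DLST, its E2 component, at 40.1 ± 2.44. FH, which hydrates fumarate, was at 56.8 ± 3.56 RPKM. SUCLG1, the α subunit common to both succinate-CoA ligases, was at 39.0 ± 2.25 and IDH3B, a regulatory subunit of IDH3, at 42.3 ± 2.47. The catalytic subunit IDH3A (6.68 ± 0.20) and IDH2 (5.16 ± 0.50) were the lowest. The 3 libraries of IDH3B, DLST and SUCLG1 overlapped in this order. In 2D cells IDH2 stood at 14.2 ± 2.08 RPKM and IDH3A at 4.05 ± 0.38, so that their order by this measure was the opposite one. The order of genes depends on the length used. All annotated exons together span 6823 bases for IDH3A and 2787 for IDH2, against 4083 and 2658 in the MANE Select transcripts. The order of IDH3A and IDH2 in 3D cells rests on the choice of the latter.

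**Figure D1:**
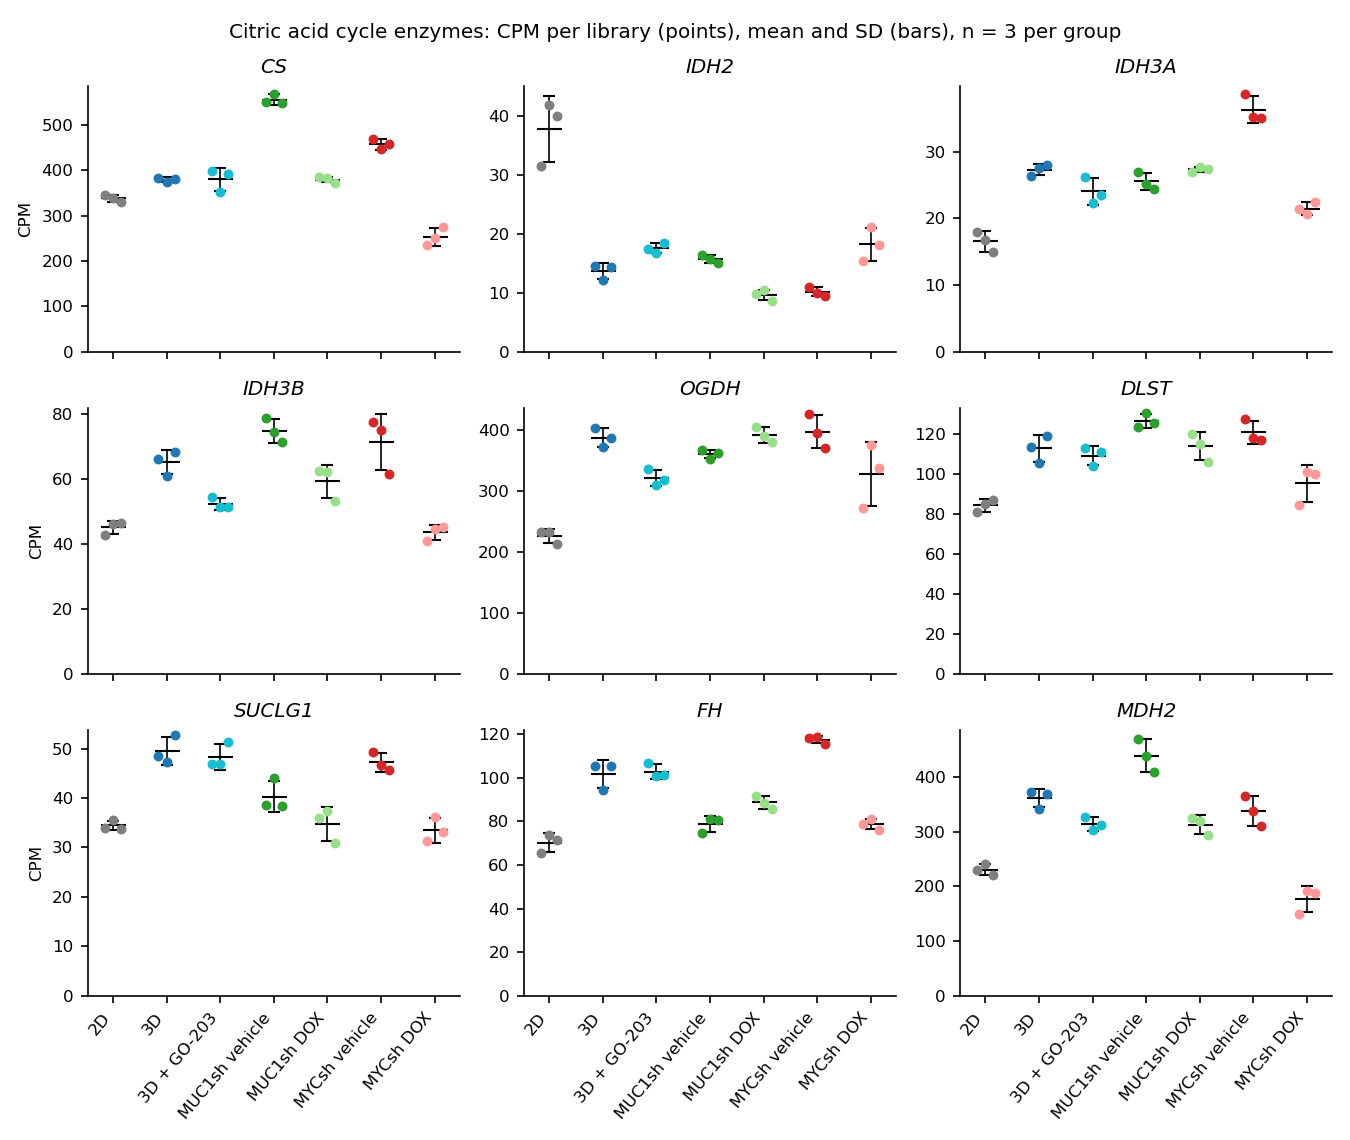
CPM of each of the 9 genes in all 21 libraries, with a linear axis from 0; points are libraries, and bars are the mean and SD of the 3 libraries of a group. IDH2 is highest in 2D cells (31.5 to 41.9 CPM), whereas the other genes are higher in 3D than in 2D cells in every library.

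The first comparison asked how the cycle differs between mammospheres and monolayers. Of the 9 genes, 8 were upregulated and IDH2 was downregulated in 3D vs. 2D cells, and no gene's groups of 3 libraries overlapped. Among all 19190 genes tested, 32.0% were higher and 31.7% lower at the same threshold, where the quasi-likelihood test of edgeR gave an adjusted p below 0.1. The median log2 fold change was 0.53 over the members and -0.01 over all genes, and groups did not overlap for 64.2% of all genes.

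IDH2 was at 31.5, 41.9 and 39.9 CPM in 2D cells and at 14.6, 12.2 and 14.4 CPM in 3D cells. Every 3D library lay below the lowest 2D library, and the decrease was 2.77-fold (log2 fold change -1.47, SE 0.10, edgeR adjusted p = 3.2e-09). IDH3A had 17.9, 16.8 and 14.9 CPM in 2D and 26.4, 27.5 and 27.9 CPM in 3D cells, a 1.64-fold increase (log2 fold change 0.72, SE 0.08, edgeR adjusted p = 1.3e-06). The enzymes that act on isocitrate thus moved in opposite directions. Their RPKM ratio, IDH2 over IDH3A, was 2.70, 3.82 and 4.12 in the 2D libraries and 0.849, 0.680 and 0.791 in the 3D libraries.

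OGDH had the largest increase among the members, from 234, 232 and 214 CPM to 404, 372 and 387 CPM (log2 fold change 0.77, SE 0.06, edgeR adjusted p = 4.9e-09). MDH2 went from 230, 240 and 220 CPM to 372, 342 and 368 CPM (log2 fold change 0.65, SE 0.06, edgeR adjusted p = 4.1e-08). FH, IDH3B, SUCLG1 and DLST rose by log2 values of 0.53, 0.53, 0.52 and 0.41. CS changed least, from 346, 340 and 330 CPM to 383, 373 and 381 CPM, a log2 fold change of 0.16 (SE 0.05, edgeR adjusted p = 0.0121). With a fold change above 1.5 required in addition, IDH3A, OGDH and MDH2 remained upregulated and IDH2 downregulated, where 17.9% of all genes were higher and 21.1% lower by that rule.

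The size of several changes depended on which mammospheres stood for 3D growth. With vehicle-treated tet-MUC1shRNA cells in place of the untransduced 3D cells, the largest log2 fold change over 2D cells was that of MDH2 (0.93), and IDH3B (0.73) and CS (0.71) also lay above OGDH (0.67). It was 0.16 for FH and 0.22 for SUCLG1, against -1.26 for IDH2. CS lost its call when libraries were scaled by their size alone (log2 fold change 0.10, edgeR adjusted p = 0.104).

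**Figure D2:**
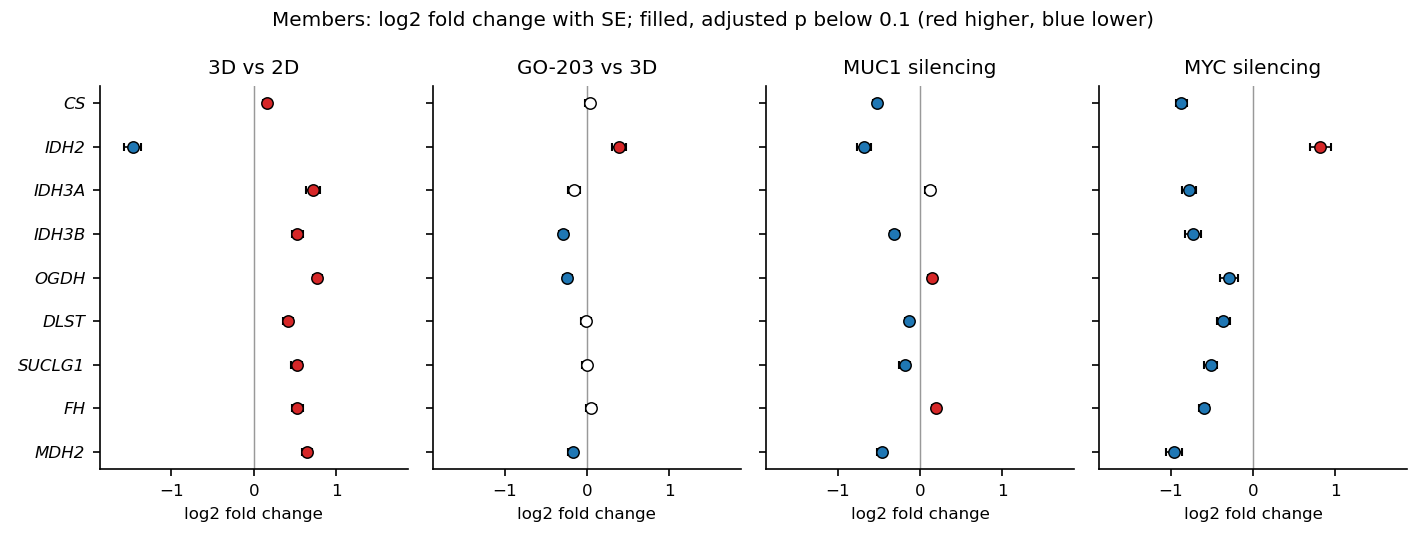
Log2 fold change of each gene in the 4 comparisons, with the standard error as bars; filled points passed an adjusted p of 0.1 (red higher, blue lower) and open points did not. IDH2 lies opposite to the other 8 genes in 3D vs. 2D cells (-1.47) and on MYC silencing (0.82).

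Since IDH2 moved against the other 8 members in 3D vs. 2D cells and on MYC silencing, the sequence before the transcription start was read for the contrast. The 250 bases upstream of the MANE Select start are given 5′ to 3′ for IDH2, for IDH3A of the same reaction, and for MDH2, whose level fell most on MYC silencing. Capitals mark the CCAAT box, the GC box (GGGCGG), the motif CCGGAAG that ETS factors bind and the NRF1 motif, each searched on either strand.
IDH2 promoter, hg38 chr15:90102469-90102718, minus strand: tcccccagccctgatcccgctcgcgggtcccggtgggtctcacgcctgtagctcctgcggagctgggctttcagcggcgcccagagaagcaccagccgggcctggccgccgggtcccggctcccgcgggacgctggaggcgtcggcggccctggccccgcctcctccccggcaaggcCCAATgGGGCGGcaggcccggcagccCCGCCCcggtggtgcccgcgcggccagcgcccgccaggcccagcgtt
IDH3A promoter, hg38 chr15:78149112-78149361, plus strand: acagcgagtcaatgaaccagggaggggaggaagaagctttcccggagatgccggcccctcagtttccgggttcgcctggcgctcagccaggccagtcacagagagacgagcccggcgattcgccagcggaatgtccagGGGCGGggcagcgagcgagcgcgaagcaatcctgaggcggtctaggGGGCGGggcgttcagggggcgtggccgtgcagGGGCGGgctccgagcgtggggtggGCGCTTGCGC
MDH2 promoter, hg38 chr7:76047856-76048105, plus strand: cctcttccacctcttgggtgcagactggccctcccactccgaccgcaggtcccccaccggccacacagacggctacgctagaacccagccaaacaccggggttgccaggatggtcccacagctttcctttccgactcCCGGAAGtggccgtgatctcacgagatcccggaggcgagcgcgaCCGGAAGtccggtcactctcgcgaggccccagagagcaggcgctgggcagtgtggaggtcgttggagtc
The RefSeq promoter table held an entry for 8 of the 9 members, OGDH being the missing one, and these 8 were searched in the hg38 sequence. For IDH2 the start in that table lies 1847 bases from the MANE Select start used here, and for the other 7 both starts coincide. The E-box CACGTG, a motif that MYC can bind, was found in 0 of the 8 windows and in 7.88% of 19060 windows of the same length before MANE Select starts. CCGGAAG stood in 3 of the 8 (MDH2, DLST and IDH3B; 11.9% of all windows) and the NRF1 motif in 1 (IDH3A; 7.68%). CCAAT was found in 3 of the 8 against 34.4% of all windows, and GGGCGG in 5 against 60.0%. IDH2 had 1 CCAAT and 2 GC boxes, and its window was 79.2% G or C, where the median over all windows was 63.2%. These matches are a description of letters in the window.

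GO-203 was compared with control 3D cells to ask what blocking MUC1-C does in mammospheres. The changes were small: IDH2 was upregulated, IDH3B, OGDH and MDH2 were downregulated, and the other 5 genes did not pass the test. Of 18488 genes tested, 11.1% were higher and 12.9% lower. The groups did not overlap for 5 of the 9 members, as for 33.1% of all genes, and the median log2 fold change was -0.01 over the members and 0.02 over all genes.

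IDH2 went from 14.6, 12.2 and 14.4 CPM to 17.5, 16.7 and 18.5 CPM, a 1.31-fold increase (log2 fold change 0.39, SE 0.09, edgeR adjusted p = 0.00297). IDH3B had 66.2, 60.9 and 68.3 CPM without and 54.4, 51.4 and 51.2 CPM with GO-203 (log2 fold change -0.28, SE 0.06, edgeR adjusted p = 0.00146). All 3 treated libraries lay outside the range of the control ones for both genes. OGDH fell from 404, 372 and 387 to 336, 310 and 318 CPM (log2 fold change -0.24, SE 0.05, edgeR adjusted p = 0.00287). MDH2 was lower by a log2 of -0.17 (SE 0.05, edgeR adjusted p = 0.0290), a call lost without 3D replicate 1 (edgeR adjusted p = 0.163) and with all 21 libraries in one fit (edgeR adjusted p = 0.119). CS (0.03), DLST (-0.01), SUCLG1 (-0.00) and FH (0.05) had log2 values near 0. IDH3A was at -0.15 (edgeR adjusted p = 0.158), and passed at -0.22 without GO-203 replicate 1 (edgeR adjusted p = 0.093). No member changed by more than 1.5-fold, a rule that 3.61% of all genes passed as higher and 2.02% as lower. The same 3D libraries served as the treated side of the first comparison and the control of this one, so that these comparisons are not independent.

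MUC1 silencing asked the same of the MUC1 gene itself. Of the 9 genes, 6 were downregulated in DOX- vs. vehicle-treated tet-MUC1shRNA mammospheres and 2 upregulated, and 1 did not pass. Among all 19220 genes tested, 31.6% were lower and 30.7% higher. The groups did not overlap for 8 members, all but IDH3A, and for 62.4% of all genes. The median log2 fold change was -0.19 over the members and 0.02 over all genes.

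The genes at the entry of the cycle and at its end fell most, together with IDH2. CS was at 550, 569 and 548 CPM with vehicle and 385, 382 and 372 CPM with DOX, a 1.44-fold decrease (log2 fold change -0.53, SE 0.04, edgeR adjusted p = 3.2e-10). MDH2 went from 470, 438 and 408 CPM to 325, 319 and 294 CPM (log2 fold change -0.47, SE 0.05, edgeR adjusted p = 7.1e-08). IDH2 went from 16.4, 15.8 and 15.1 CPM to 9.88, 10.4 and 8.65 CPM, the one member past a 1.5-fold change (log2 fold change -0.68, SE 0.09, edgeR adjusted p = 9.4e-07). By that rule 14.6% of all genes were lower and 17.6% higher.

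IDH3B decreased by 1.24-fold (log2 fold change -0.31, SE 0.06, edgeR adjusted p = 1.1e-04), from 71.3 to 78.7 CPM down to 53.3 to 62.4 CPM. SUCLG1 and DLST were lower by log2 values of -0.19 and -0.13 (edgeR adjusted p = 0.0282 and 0.0259). Both calls were lost without DOX replicate 3 (-0.12 and -0.09, edgeR adjusted p = 0.185 and 0.154), that of SUCLG1 also without vehicle replicate 2 (edgeR adjusted p = 0.152), that of DLST with at least 10 counts in every library (-0.08, edgeR adjusted p = 0.155), and both with scaling by library size alone, where DLST stood at 0.04. That scaling moved the median of all genes to 0.19, and the share of higher genes among all calls from 49.3% to 64.4%. FH, in contrast, increased from 74.4, 81.1 and 80.5 CPM to 91.8, 88.6 and 85.9 CPM (log2 fold change 0.20, SE 0.05, edgeR adjusted p = 0.00189). OGDH increased from 368, 353 and 363 CPM to 406, 390 and 380 CPM (log2 fold change 0.14, SE 0.04, edgeR adjusted p = 0.00499), a call lost with all 21 libraries in one fit (edgeR adjusted p = 0.119). IDH3A had 24.4 to 27.0 CPM with vehicle and 27.0 to 27.6 CPM with DOX (log2 fold change 0.12, edgeR adjusted p = 0.107), and passed under 4 of the other scalings and filters. With library size alone, the log2 fold change was -0.14 for IDH3B, -0.30 for MDH2, -0.02 for SUCLG1, 0.36 for FH and 0.31 for OGDH.

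On MYC silencing each member changed in the direction opposite to 3D vs. 2D cells, in another order of size. In DOX- vs. vehicle-treated tet-MYCshRNA mammospheres 8 members were downregulated and IDH2 was upregulated. Of 19951 genes tested, 28.1% were lower and 30.3% higher. The groups did not overlap for 8 members, all but OGDH, and for 59.5% of all genes, and the median log2 fold change was -0.60 over the members and 0.01 over all genes.

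MDH2 had the largest decrease, from 365, 337 and 311 CPM to 149, 192 and 188 CPM, or 1.94-fold (log2 fold change -0.96, SE 0.10, edgeR adjusted p = 1.8e-05). CS followed with 470, 446 and 457 CPM against 235, 250 and 275 CPM, or 1.83-fold (log2 fold change -0.87, SE 0.07, edgeR adjusted p = 2.1e-06). For both enzymes of oxaloacetate, every silenced library was below every other library of the 21. IDH3A fell from 38.6, 35.2 and 35.0 CPM to 21.3, 20.6 and 22.5 CPM (log2 fold change -0.78, SE 0.08, edgeR adjusted p = 2.4e-05). IDH3B, FH, SUCLG1 and DLST fell by log2 values of 0.73, 0.60, 0.51 and 0.36, with edgeR adjusted p between 1.5e-05 and 0.00282. Without DOX replicate 1, the library that stood apart, the count stayed at 8 lower and 1 higher. The log2 fold changes were then -0.85 for MDH2, -0.83 for CS, -0.78 for IDH3A, -0.29 for DLST and 0.92 for IDH2.

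IDH2 went the other way, from 11.0, 9.99 and 9.54 CPM to 15.4, 21.1 and 18.1 CPM (log2 fold change 0.82, SE 0.13, edgeR adjusted p = 3.3e-04). All silenced libraries were above the controls, and the ratio IDH2 over IDH3A went from 0.439, 0.436 and 0.418 to 1.11, 1.57 and 1.23. OGDH was at 426, 396 and 371 CPM with vehicle and 272, 376 and 338 CPM with DOX, where the groups overlap. Its log2 fold change was -0.29 (SE 0.11, edgeR adjusted p = 0.0378), or -0.18 without DOX replicate 1 (edgeR adjusted p = 0.0444), and the call was lost without vehicle replicate 1 (edgeR adjusted p = 0.121). With a 1.5-fold change required, IDH2 stayed upregulated and CS, IDH3A, IDH3B, FH and MDH2 downregulated, where 17.1% of all genes were lower and 20.6% higher.

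**Figure D3:**
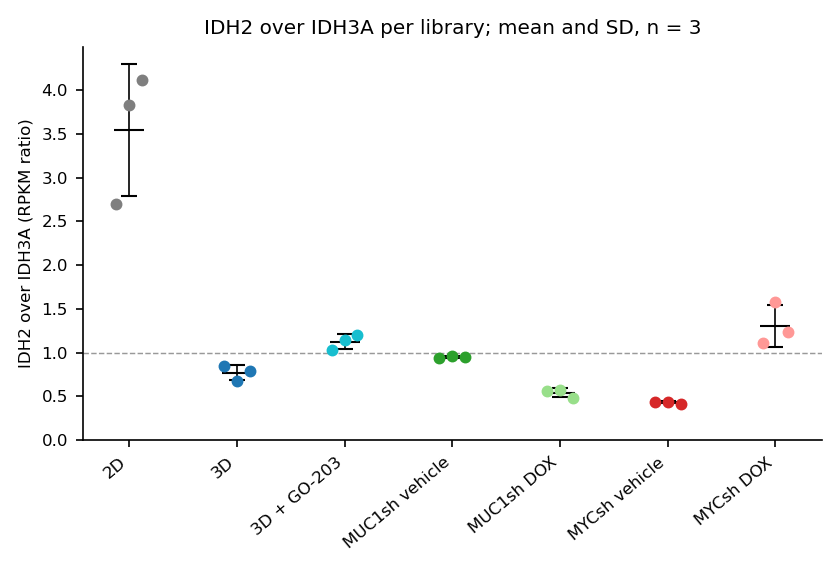
Ratio of IDH2 to IDH3A in RPKM (linear axis from 0) in each of the 21 libraries, with the mean and SD of each group of 3. The dashed line marks equal levels per base of the MANE Select transcript, and another choice of length would shift the ratios against it. The ratio is 2.70 or more in each 2D library and lowest with vehicle in the tet-MYCshRNA line (0.418 to 0.439).

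Whether both silencings acted differently was tested as an interaction over the 12 libraries of both lines, in which line and passage cannot be told apart. All 9 members passed, as did 26.0% (higher) and 26.9% (lower) of 21585 genes. The call on DLST was lost with all 21 libraries in one fit (0.19, edgeR adjusted p = 0.111), with the replicate block (0.22, edgeR adjusted p = 0.105) and in 7 of 12 fits without 1 library, and that on SUCLG1 in 5 of the 12. Library size alone moved the split of all calls from 49.1% to 61.2% higher, and the differences of CS, IDH3B, DLST and SUCLG1 to 0.54, 0.61, 0.42 and 0.52. The difference of the log2 fold changes, MUC1 silencing minus MYC silencing, was -1.51 for IDH2 (SE 0.16, edgeR adjusted p = 4.0e-07), which fell in one line and rose in the other. It was positive for the other 8 and largest for IDH3A (0.89, SE 0.10) and FH (0.78, SE 0.08). The smallest were those of DLST (0.22, SE 0.10, edgeR adjusted p = 0.0791) and SUCLG1 (0.31, SE 0.12, edgeR adjusted p = 0.0410). FH and OGDH rose on MUC1 silencing and fell on MYC silencing, whereas CS, MDH2, IDH3B, DLST and SUCLG1 fell in both lines.

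**Figure D4:**
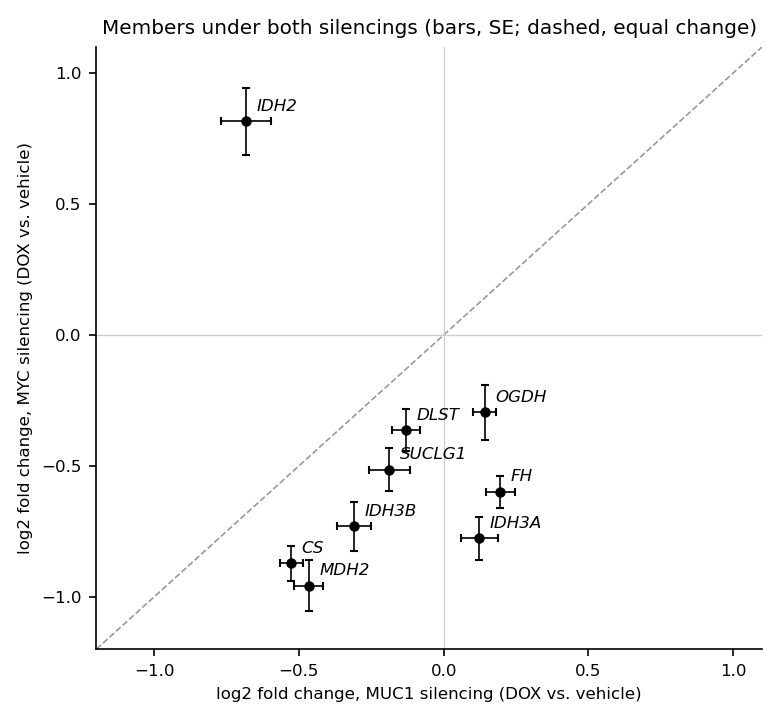
Log2 fold change of each gene on MUC1 silencing (horizontal) against MYC silencing (vertical), with standard errors as bars; the dashed line marks equal change. IDH2 is lower on MUC1 and higher on MYC silencing (-0.68 and 0.82), and the other 8 genes lie below the line.

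The same kind of test set MUC1 silencing against GO-203, each relative to its own control. It found lower log2 fold changes on MUC1 silencing for IDH2 (difference -1.07, SE 0.12, edgeR adjusted p = 5.8e-08), CS (-0.56, SE 0.06, edgeR adjusted p = 5.9e-08) and MDH2 (-0.29, SE 0.07, edgeR adjusted p = 0.00247). Those of OGDH (0.38) and IDH3A (0.28) were higher, and DLST, FH, IDH3B and SUCLG1 did not pass. FH, at a difference of 0.15, passed with DESeq2 (0.17, adjusted p = 0.0949), with library size alone (0.31, edgeR adjusted p = 0.00211), with at least 10 counts in every library (0.20, edgeR adjusted p = 0.0322) and without 3D replicate 2 (0.20, edgeR adjusted p = 0.0591). SUCLG1, at -0.18, passed without 3D replicate 3 or DOX replicate 2 (-0.23 in both). Among 20829 genes, 20.8% were higher and 24.1% lower, so that 46.4% of calls were higher, against 61.6% with library size alone, where IDH3A was at 0.44 and MDH2 at -0.14. IDH2 was thus lower with the MUC1 shRNA and higher with the peptide.

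Summed over the 9 genes, 2D cells had 1083 ± 27.1 CPM (SD, n = 3) and 3D cells 1498 ± 54.1 CPM. With GO-203 the sum was 1370 ± 60.1 CPM, each library (1425, 1306 and 1378 CPM) below each 3D library (1533, 1435 and 1524 CPM). Vehicle-treated tet-MUC1shRNA and tet-MYCshRNA mammospheres had 1717 ± 37.9 and 1596 ± 80.7 CPM, and their DOX-treated counterparts 1418 ± 53.5 and 1050 ± 105 CPM. In the silenced MYC line the sum was at the level of 2D cells: its libraries (929, 1123 and 1097 CPM) spanned those of 2D cells (1081, 1111 and 1057 CPM). CS, OGDH and MDH2 weigh most in the sum, and single genes departed from 2D cells in both directions. Group means of CS (253 against 338 CPM) and MDH2 (176 against 230 CPM) were below those of 2D cells. Those of OGDH (329 against 227 CPM) and IDH3A (21.5 against 16.5 CPM) were above.

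For a single gene, the highest group mean was 1.48 times (SUCLG1) to 3.91 times (IDH2) the lowest. The order of the groups differed between genes. CS and MDH2 were highest in vehicle-treated tet-MUC1shRNA cells (556 ± 11.6 and 439 ± 30.9 CPM) and lowest in DOX-treated tet-MYCshRNA cells. IDH3A, FH and OGDH were highest in vehicle-treated tet-MYCshRNA and lowest in 2D cells, but for OGDH this top group overlapped with DOX-treated tet-MUC1shRNA cells, which overlapped with 3D cells. For IDH2 the lowest groups, vehicle-treated tet-MYCshRNA (10.2 ± 0.78 CPM) and DOX-treated tet-MUC1shRNA cells (9.64 ± 0.90 CPM), overlapped. Over the 7 group means of log2 CPM, a description of few points that share libraries and scaling, the 28 pairs without IDH2 had Pearson r between 0.30 and 0.93 with a median of 0.65. IDH2 correlated with the other 8 at -0.97 to -0.35. The most alike pairs were CS with MDH2 (0.93), IDH3B with DLST (0.92), IDH3B with MDH2 (0.92) and IDH3A with OGDH (0.91). SUCLG1 was most like FH (0.82), FH most like IDH3A (0.84), and IDH2 was closest to SUCLG1 at -0.35. Among 8828 other genes, the mean profile of the members was most closely followed by LIAS (r = 0.99), which encodes lipoic acid synthase, then TTLL12, PARVB, MCMBP and GPD1L (each 0.98).

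A list of 9 other subunits of the cycle showed how far the pattern extends. In 3D vs. 2D cells all 9 were upregulated, where 32.0% of all genes were higher. The succinate dehydrogenase subunits SDHB (0.63), SDHD (0.57), SDHA (0.36) and SDHC (0.17) were among them. So were OGDHL, an OGDH-like E1 protein (0.63), the succinate-CoA ligase β subunits SUCLG2 (0.38) and SUCLA2 (0.26), IDH3G (0.27) and DLD, the E3 component (0.19). The median log2 fold change of the list was 0.36. With vehicle-treated tet-MUC1shRNA cells in place of 3D cells, 6 were higher and 2 lower. GO-203 lowered OGDHL (-0.35) and SDHB (-0.22), where 12.9% of all genes were lower. SDHA (-0.18), SUCLA2 (-0.11), IDH3G (-0.08), DLD (-0.06), SDHD (0.03), SDHC (0.06) and SUCLG2 (0.13) did not pass. Without 3D replicate 1, 1 gene was lower. Without 3D replicate 3 or GO-203 replicate 2, 1 gene of the list was higher.

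On MUC1 silencing 8 of the 9 were lower, where 31.6% of all genes were lower. OGDHL had the largest decrease, from 12.9, 13.7 and 12.1 CPM to 3.86, 5.38 and 4.54 CPM (log2 fold change -1.46, SE 0.12, edgeR adjusted p = 9.1e-10). SDHD (-0.61), IDH3G (-0.45), SDHA (-0.39), SUCLG2 (-0.27) and SDHB (-0.16) followed, then SUCLA2 (-0.11) and DLD (-0.09), and SDHC was at 0.00. The calls on SUCLA2 and DLD were near the threshold (edgeR adjusted p = 0.0962 and 0.0917), and the count was 5 or 6 under all 9 other tests, scalings, filters, models and thresholds (6 with the replicate block), with 5 lower and 1 higher for library size alone. On MYC silencing 6 were lower, namely SDHB (-0.85), DLD (-0.60), SDHD (-0.51), SDHA (-0.49), SUCLA2 (-0.42) and SUCLG2 (-0.29). Of all genes 28.1% were lower there. IDH3G (-0.14), SDHC (0.10) and OGDHL (0.13) did not pass, and 1 gene was higher without DOX replicate 1. OGDHL thus differed between the silencings, with a difference of -1.60 (edgeR adjusted p = 4.3e-07).

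**Figure D5:**
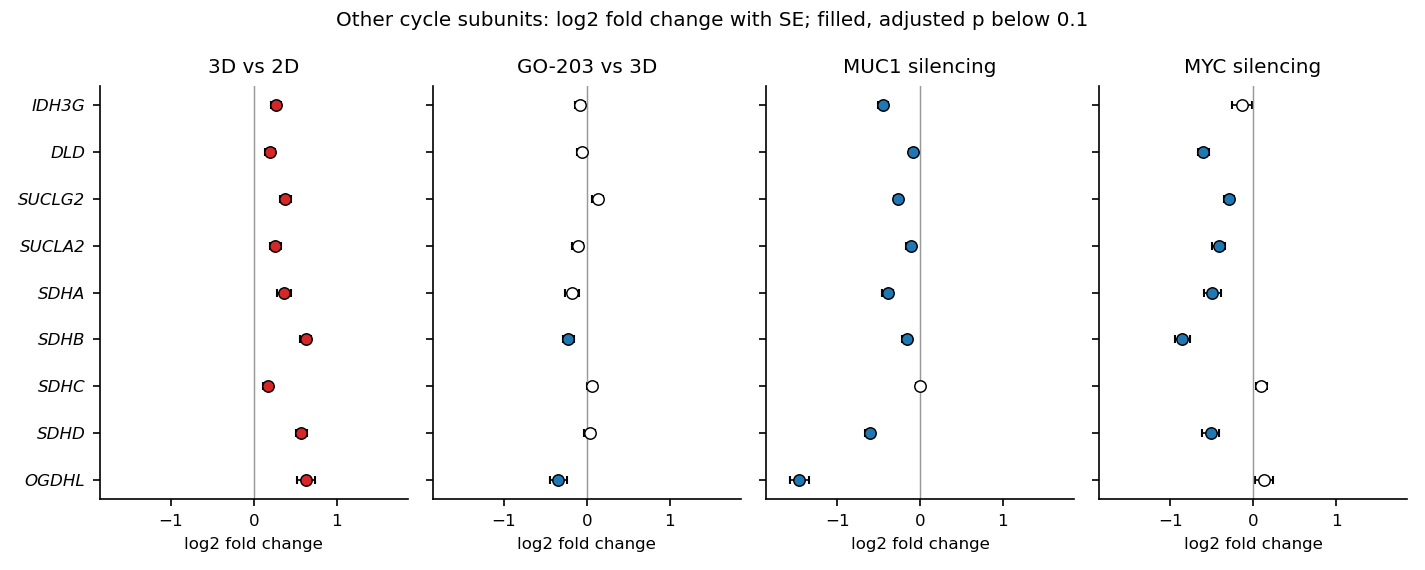
Log2 fold change of 9 other subunits of the cycle in the 4 comparisons, with standard errors; filled points passed an adjusted p of 0.1 (red higher, blue lower). On MUC1 silencing OGDHL (-1.46) is the lowest and SDHC (0.00) the highest.

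Of the enzymes that feed or drain the cycle, or that work on its metabolites in the cytosol, 12 of 13 were tested, and 7 were higher and 3 lower in 3D vs. 2D cells. Of all genes 32.0% were higher and 31.7% lower. Pyruvate carboxylase (PC), which makes oxaloacetate from pyruvate, had the largest increase, from 22.1, 29.2 and 25.7 CPM to 122, 110 and 110 CPM (log2 fold change 2.14). The cytosolic malic enzyme ME1 had the largest decrease (-1.01). GO-203 raised ACO1, the cytosolic aconitase (0.17), and lowered 3 genes, of which GOT2, the mitochondrial aspartate aminotransferase, changed most (-0.35). With GO-203, 11.1% of all genes were higher and 12.9% lower. The call on ACO1 was lost without 3D replicate 3, GO-203 replicate 1 or GO-203 replicate 3 and with no filter beyond 1 count, and 1 gene of the list was lower without GO-203 replicate 2. MUC1 silencing lowered 9 and raised 3, with ACLY, which splits citrate in the cytosol, at -0.93 and ME1 at 0.44. Of all genes 31.6% were lower and 30.7% higher on that silencing. MYC silencing raised 4 and lowered 5, with PCK2, the mitochondrial phosphoenolpyruvate carboxykinase, at 0.90, where 30.3% of all genes were higher and 28.1% lower. GOT2 fell from 262, 245 and 237 CPM to 78.4, 82.1 and 77.7 CPM (log2 fold change -1.66, SE 0.06, edgeR adjusted p = 2.5e-08).

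IDH1, the cytosolic NADP-dependent relative of IDH2, was singled out after its values were seen. It fell in 3D cells (165, 172 and 182 CPM against 91.6, 92.8 and 102 CPM, a log2 fold change of -0.86) and on MUC1 silencing (-0.88), and rose on MYC silencing (0.32). Its log2 fold change with GO-203 was -0.01 (edgeR adjusted p = 0.926). IDH1 and IDH2 therefore had the same sign in 3 comparisons.

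Of 5 mitochondrial carriers of cycle metabolites, 2 were higher and 1 lower in 3D cells, with SLC25A1, the citrate carrier, at 0.94 and SLC25A12, an aspartate/glutamate carrier, at -0.41. Among all genes 32.0% were higher and 31.7% lower. Without 2D replicate 2, 2D replicate 3 or 3D replicate 3, 1 carrier was higher, as under 7 of 10 other tests, scalings, filters, thresholds or sample sets, the replicate block among them. With library size alone, or vehicle-treated tet-MUC1shRNA cells in place of 3D cells, 1 was higher and 2 were lower. Only SLC25A13, the other such carrier, passed with GO-203 (-0.18), and 2 were lower without 3D replicate 3 or GO-203 replicate 1 and 3 with the replicate block. MUC1 silencing raised 2 and lowered 2, with SLC25A10 at 0.70 and SLC25A1 at -0.67, and 1 was lower with library size alone or all 21 libraries in one fit. MYC silencing raised SLC25A1 (0.44) and lowered 3, with SLC25A10 at -1.27, and none was higher without vehicle replicate 3. Of 7 genes of lipoylation and complex II assembly, 4 were higher and none lower in 3D cells, led by the assembly factor SDHAF3 (1.39). SDHAF3 was the 1 gene to pass with GO-203 (-0.39). MUC1 silencing raised SDHAF2 (0.21) and lowered 4, with LIPT1 at -0.69, and MYC silencing raised SDHAF4 (0.36) and lowered 3, with SDHAF3 at -1.26. With library size alone 2 were lower on MUC1 silencing. The call on SDHAF2 was lost without DOX replicate 2 and with all 21 libraries in one fit, and that on SDHAF4 without any 1 of the 6 tet-MYCshRNA libraries other than DOX replicate 1. The latter was also lost with library size alone, the replicate block, a threshold of 0.05 or no filter beyond 1 count. Beside the counts of both lists, 11.1% of all genes were higher and 12.9% lower with GO-203. These shares were 30.7% and 31.6% on MUC1 silencing, and 30.3% and 28.1% on MYC silencing.

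The 13 protein-coding genes of the mitochondrial DNA, which encode respiratory chain and ATP synthase subunits and no enzyme of the cycle, moved differently. All 13 were lower in 3D vs. 2D cells (median log2 fold change -0.87), from MT-CYB at -1.26 to MT-ND3 at -0.61, whereas with vehicle-treated tet-MUC1shRNA cells in place of 3D cells 12 were lower and 1 higher. All 13 were higher with GO-203 (median 0.59; MT-CYB 0.70) and on MUC1 silencing (median 1.21; MT-ND1 1.49), and 10 were higher on MYC silencing (median 0.30; MT-CYB 0.81). The last count was 4 without vehicle replicate 1 or DOX replicate 3, where 1 gene was lower in the latter case, and 6 without vehicle replicate 2. All genes whose symbol starts with MT-, the 13 among them, took 5.22% to 5.24% of a library in 2D and 2.31% to 2.72% in 3D cells. With DOX they took 6.36% to 6.72% in the tet-MUC1shRNA line. Scaling without all genes of such a symbol left every call on the members as it was, except that IDH3A passed as higher on MUC1 silencing (edgeR adjusted p = 0.081).

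By position (GRCh38, GENCODE 44), the members lie on separate loci: CS at chr12:56271699-56300391, IDH2 at chr15:90083045-90102477, IDH3A at chr15:78131498-78171945, IDH3B at chr20:2658395-2664219 and OGDH at chr7:44606572-44709066. DLST lies at chr14:74881891-74903743, SUCLG1 at chr2:84423528-84460045, FH at chr1:241497511-241519799 and MDH2 at chr7:76048051-76067508. Exons of ACSBG1 and CIB2 on the opposite strand cover 38.8% of the IDH3A exon bases, and 6.46% are covered for SUCLG1, so that without a stated strand setting those reads could not be told apart. CS has 2 genes named after it that are annotated as pseudogenes (CSP1 and CSP2), and DLST and FH 1 each (DLSTP1 and FHP1). How reads shared with them were counted is not given in the sources used here. The same holds for SDHA, SDHB, SDHC, SDHD, SUCLG2, SUCLA2, GOT2, SLC25A1 and LIPT1, which also have such pseudogenes, and for SLC25A10, SDHAF2, SDHA, SDHD, LIPT1 and CS, which share 46.6%, 44.8%, 21.7%, 11.4%, 7.90% and 3.44% of their exon bases with an overlapping gene of the same strand.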

How the data were processed

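Stranded mRNA libraries of 21 BT-549 cultures were sequenced from both ends. The authors aligned reads to GRCh38 with STAR, for which the submitters' processing notes give version 2.7.3a and the methods another, and counted them with featureCounts. They deposited raw counts per gene, without normalization. The annotation release, strand setting and handling of multimapping reads are not given in the sources used here. Empty cells of the table were read as 0, and no member had one. Symbols came from GENCODE 44, which matched 42252 of 42339 identifiers. Total counts ranged 2.62-fold between libraries (38026597 to 99751717), and the 21 pairs of replicates differed by more than sampling noise (chi-square per degree of freedom 4.13 to 45.6). For each comparison, the 6 libraries were filtered with filterByExpr, scaled by TMM factors and tested with edgeR 4.0.16's quasi-likelihood test in R 4.3.3, with Benjamini-Hochberg adjustment over all genes. An adjusted p below 0.1 counted as a call, and a second rule also required a fold change above 1.5. Interactions were tested over 12 libraries. In simulated data for the 3D vs. 2D comparison (19098 genes), 100% of 200 genes changed by a log2 of 1 were recovered and 19 unchanged genes were called. For the interaction of both silencings (20675 genes) the values were 98.5% and 19. The simulation used the same dispersion for every gene, well-counted changed genes and as many rises as falls. Changes below a log2 of 1, as most of the members' were, were not simulated. CPM and RPKM were computed from the deposited counts.

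All 9 members are named in every comparison, as are the other subunits of the cycle, and of each further list the largest rise and fall among called genes. 1 gene of the list of other subunits as first fixed was left out of it and is not reported here. The 5 genes most like the members were taken by Pearson r over group means. The members and gene lists were chosen with earlier results of these data known. The members' changes and the counts of calls per list were also computed with DESeq2 1.42.0, with RLE factors or plain library size for scaling, and with mtDNA genes left out of the scaling. The low-count filter was replaced by a minimum of 1 count in a comparison or of 10 counts per library. Further alternatives were a single fit of all 21 libraries, the replicate number as a block, a threshold of 0.05, vehicle-treated tet-MUC1shRNA cells standing for 3D cells, and the omission of each library in turn.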

Additional observations from a re-analysis of the deposited data

Results flagged for a closer look

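The response to DOX differed between the tet-MUC1shRNA and tet-MYCshRNA lines for all 9 members by a test of the difference itself (edgeR's interaction over 12 libraries; 26.0% of all genes were higher and 26.9% lower). The difference in log2 fold change, MUC1 silencing minus MYC silencing, was -1.514 for IDH2 (edgeR adjusted p = 3.97e-07), 0.8866 for IDH3A, 0.7822 for FH, 0.4772 for MDH2, 0.4219 for OGDH, 0.4069 for IDH3B and 0.333 for CS. It was 0.3124 for SUCLG1 (edgeR adjusted p = 0.04098) and 0.2191 for DLST (edgeR adjusted p = 0.07912). The call on DLST was lost in 7 of the 12 fits that left out 1 library, namely without tet-MUC1shRNA vehicle replicate 1 or 3, tet-MUC1shRNA DOX replicate 1 or 2, tet-MYCshRNA vehicle replicate 1 or 2, or tet-MYCshRNA DOX replicate 1, with the difference as low as 0.14 in the last. That on SUCLG1 was lost in 5 of them, without tet-MUC1shRNA vehicle replicate 1 or 3, tet-MUC1shRNA DOX replicate 1 or 2, or tet-MYCshRNA vehicle replicate 1 (edgeR adjusted p between 0.106 and 0.126). The lines also differ in shRNA, passage and the depth of silencing of their target, which cannot be told apart here.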

How the results depend on the processing

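Over the members' log2 fold changes, 479 of 495 values under other tests, scalings, filters or sample sets were rated the same, 8 weaker, 7 stronger and 1 reversed. A value rated the same stayed on its side of the threshold and kept its direction, unless neither it nor the main value passed. A change of sign without any call was thus also rated the same. With 1 library left out, 410 of 432 were rated the same, 17 weaker, 5 stronger and none reversed. Some uncalled values did change sign there. With GO-203, CS went as low as -0.003, and DLST and SUCLG1 as high as 0.017 and 0.036. IDH3B in MUC1 silencing minus GO-203 reached 0.047. The value rated reversed was DLST on MUC1 silencing, at 0.036 with library size alone (edgeR adjusted p = 0.529), a scaling that moved the median of all genes from 0.02 to 0.19. That scaling also changed the sign of uncalled values, to 0.004 for SUCLG1 with GO-203. In MUC1 silencing minus GO-203 it did so for IDH3B (0.13) and DLST (0.04). The number of members upregulated on MUC1 silencing was 1 in place of 2 with all 21 libraries in one fit, since OGDH had an adjusted p of 0.119 there. Without any one library it was 2 or 3. Same-numbered libraries did not deviate together (mean correlation -0.05, 0.14, 0.04 and -0.22 in the 4 comparisons, and not every pair above 0.1), so the numbers were not taken as a pairing. The replicate block gave the same number of members higher and lower in each comparison (8 and 1 in 3D vs. 2D cells), but lost DLST in the interaction of both silencings (0.22, edgeR adjusted p = 0.105). With 3 libraries a group, changes such as those of DLST and SUCLG1 on MUC1 silencing (-0.13 and -0.19) lay near the limit of what was called. The cause of these differences was not tested.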
